A study of Mus musculus with 6 samples.

Results

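The pair of arrays labelled liver compared ob/ob mice (B6.V-Lepob/J) given MCSE, a water extract made from seeds of Momordica charantia (bitter melon), with ob/ob mice given phosphate-buffered saline (PBS, the mock treatment), 1 array for each. All mice of the series carried the leptin-deficient allele, so no lean animals entered the comparison, and every mouse also received glucose. The animals went without food for 4 h, took MCSE or PBS by mouth, were injected with glucose (1 g/kg) in the abdomen 15 min later and had their tissues taken 4 h after that injection. The labels do not say how old the mice were or how many stand behind an array. The members were the probes at or above the median intensity of the array on at least 1 of the 2 arrays, 16880 of the 29922 probes in all. Of these, 13297 had a gene symbol and 3583 had none. Where a gene had several probes the brightest stood for it, which left 11342 of 16675 symbols. Values are log2 of the deposited normalized intensity, with low values raised to a floor of 7.74, and a difference is always log2 MCSE minus PBS. With 1 array for each treatment no difference had a replicate error and no p-value could be computed.

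The liver makes most proteins of the plasma, clears drugs and steroids, and turns ammonia into urea. Between meals it releases glucose from glycogen and by gluconeogenesis, which glucagon and glucocorticoids promote and insulin restrains. After a meal or a glucose load insulin instead favours glycogen and fatty acid synthesis. Immediate early genes are transcription factors and regulators that cells switch on within minutes of a stimulus without new protein synthesis, and chemokines are secreted proteins that draw in leukocytes, both often through NF-kB, CREB and serum response factor.

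The promoters of 4 genes of these last groups are shown because each gene was higher with MCSE by at least 1.88 on the log2 scale, and they were chosen after the values were seen. Each line gives the 250 bases before the transcription start, 5′ to 3′, from RefSeq (GRCm38.p6). Capitals mark matches to the NF-kB site in the first 2 and to TGACG, the half-site of the cyclic AMP response element, on either strand in the last 2. Cxcl1 lies at chr5:90890995-90891244 (plus strand), Cxcl2 at chr5:90903649-90903898 (plus strand), Nr4a1 at chr15:101266596-101266845 (plus strand) and Fos at chr12:85473640-85473889 (plus strand).
Cxcl1: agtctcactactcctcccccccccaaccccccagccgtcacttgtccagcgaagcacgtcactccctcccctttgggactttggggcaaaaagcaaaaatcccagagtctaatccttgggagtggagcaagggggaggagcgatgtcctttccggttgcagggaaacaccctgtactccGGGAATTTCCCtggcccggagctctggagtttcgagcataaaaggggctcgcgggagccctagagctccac
Cxcl2: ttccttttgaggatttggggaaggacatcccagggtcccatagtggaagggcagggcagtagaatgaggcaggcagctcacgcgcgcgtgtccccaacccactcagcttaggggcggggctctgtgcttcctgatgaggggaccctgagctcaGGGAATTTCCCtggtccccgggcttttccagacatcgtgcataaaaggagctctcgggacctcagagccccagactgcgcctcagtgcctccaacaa
Nr4a1: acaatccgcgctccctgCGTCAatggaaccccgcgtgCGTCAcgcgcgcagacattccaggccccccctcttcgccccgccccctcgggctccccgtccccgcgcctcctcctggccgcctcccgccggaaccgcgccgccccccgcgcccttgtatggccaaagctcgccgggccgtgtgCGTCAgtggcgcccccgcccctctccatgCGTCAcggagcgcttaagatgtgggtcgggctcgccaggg
Fos: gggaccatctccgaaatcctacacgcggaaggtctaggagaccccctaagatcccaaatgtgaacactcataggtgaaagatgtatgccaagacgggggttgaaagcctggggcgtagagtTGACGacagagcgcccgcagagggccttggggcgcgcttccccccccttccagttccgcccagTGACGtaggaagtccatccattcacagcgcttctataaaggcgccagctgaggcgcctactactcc

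Cxcl1 and Cxcl2, which encode chemokines that attract neutrophils, each held 2 overlapping matches to the NF-kB site, between 71 and 61 bases before the start in Cxcl1 and between 97 and 87 bases before it in Cxcl2. Nr4a1, an orphan nuclear receptor, held 4 TGACG matches, and Fos, a subunit of the AP-1 factor, held 2. The motifs were not split cleanly, since Cxcl1 also held 2 TGACG matches and Fos 1 match to the NF-kB site, which are not in capitals. Over the first listed start site of 27025 genes, 7.01% of windows of the same length held the NF-kB site and 17.9% held TGACG. Among the chemokines at least 2-fold higher with MCSE, 5 had a promoter in the table and 3 of those held the NF-kB site, against 1 of 11 among the other measured chemokines. Among the immediate early genes, TGACG was found in 9 of the 14 higher genes with a promoter and in 3 of the 10 others, and the NF-kB site in 3 and 2. The other lists varied. Among the gluconeogenic genes TGACG was in 4 of 5 higher genes and 3 of 9 others, and the NF-kB site in 1 and 0. Among the NF-kB and cytokine targets the NF-kB site was in 4 of 9 higher genes and 2 of 9 others, and TGACG in 1 and 2, while among clock genes TGACG was in 0 of 3 higher genes and 7 of 12 others. A match is a description of the sequence and was not tied to binding of a factor.

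Both arrays carried hepatocyte transcripts, but not those alone. All 14 hepatocyte markers found on the array passed the filter, with median log2 intensities of 11.64 (PBS) and 11.81 (MCSE) in the liver pair, against 9.84 and 9.45 on the muscle arrays. All 15 white adipocyte markers on the array also passed, with medians of 13.96 and 14.32, as did all 19 markers of the kidney proximal tubule, with medians of 11.33 and 12.66. Liver is therefore used here as the label of an array. The MCSE liver array and the array labelled MCSE adipose were closely alike (Pearson correlation 0.982 over all probes, a description with no test), while the PBS liver array correlated with the MCSE liver array at 0.926 and with the MCSE adipose array at 0.890. PBS adipose was the array least like the other 5, with correlations between 0.307 and 0.517.

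Over the 11342 genes the median difference was -0.02 and the SD 0.741, with percentiles of -1.06 (the 5th) and 1.22 (the 95th). MCSE values exceeded PBS values by 2-fold or more in 938 genes (8.27% of those measured) and fell short of them by as much in 682 (6.01%). Over all member probes the counts were 1432 (8.48%) and 1076 (6.37%). The tail was longer upward. A 4-fold difference was reached by 151 genes that were higher and by 40 that were lower, and an 8-fold difference by 41 and 3. Of the higher genes, 375 lay below the array median on the PBS liver array, and of the lower genes 117 lay below it on the MCSE liver array. With the 9261 genes at or above the median on both arrays, 563 were higher and 565 lower, so the excess in the 2-fold count rested on genes dim on 1 array. The longer upward tail remained among these 9261 genes. Their 15 largest higher differences ran from 3.25 to 4.67, and their 15 largest lower ones from -2.13 to -2.89. Among the 2836 dimmest genes 263 were higher and 72 lower, whereas the 2836 brightest held 197 and 192.

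**Figure D1:**
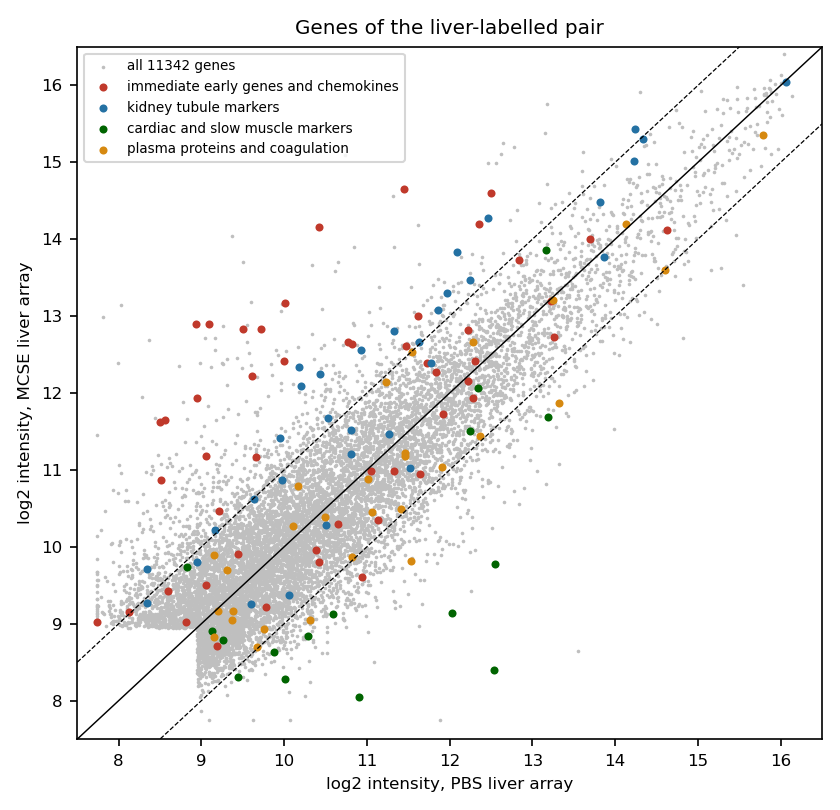
Log2 intensity of 11342 genes on the PBS liver array (horizontal axis) and the MCSE liver array (vertical axis), 1 point for each gene, with the line of equality and dashed lines at a 2-fold difference. Immediate early genes and chemokines (red) and kidney tubule markers (blue) lie mostly above the line of equality, and cardiac and slow muscle markers (green) mostly below it; plasma protein and coagulation genes (amber) lie mostly between the dashed lines.

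A second probe gave a measure of how far probes of 1 gene disagree. Both probes were read on the same 2 arrays, so their scatter leaves out error of array, RNA or animal. For 1653 genes with 2 or more member probes, the difference scattered between the brighter and the second probe with an SD per probe of 0.611, a factor of 1.53. Of 132 genes whose brighter probe was 2-fold higher, the next one lay above 0 in 82 and was itself 2-fold higher in 21 (15.9%). Of 95 genes that were 2-fold lower, the second lay below 0 in 58 and was 2-fold lower in 10 (10.5%). Single probes past 2-fold were thus often not matched by the other probe of the gene.

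**Figure D2:**
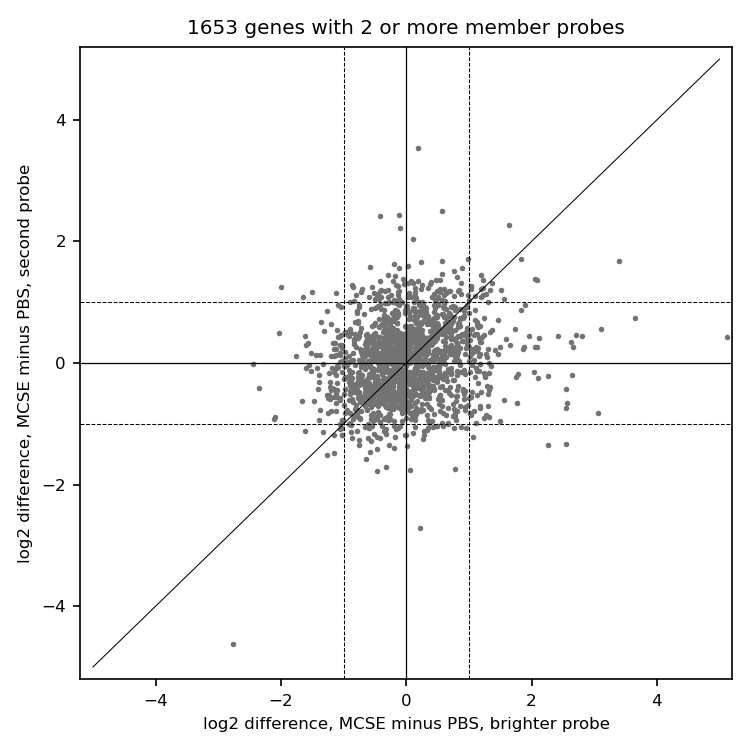
Log2 difference between MCSE and PBS on the liver-labelled arrays for the brighter probe (horizontal axis) and the second probe (vertical axis) of 1653 genes, 1 point for each gene. Solid lines mark 0 and equality, dashed lines a 2-fold difference; 21 of the 132 genes right of the upper dashed line are also above it on the second probe.

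Pathway lists were read against these shares. Many genes past 2-fold also had PBS liver values unlike those of 3 other arrays. A gene was counted as apart when its PBS liver value was at least 2-fold below, or at least 2-fold above, the values on both muscle arrays and on the MCSE adipose array. The dim kind made up 403 of the 938 higher genes and the bright kind 247 of the 682 lower genes. Counts without such genes are given below for the pathway lists where they differ. Since the rule uses the PBS value itself, and the MCSE adipose array is closely alike to the MCSE liver array, it removes differences by construction, and no such count was made for the MCSE liver array. A gene dimmer on a muscle array than on the PBS liver array could not be counted as the dim kind, whatever its difference.

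**Figure D3:**
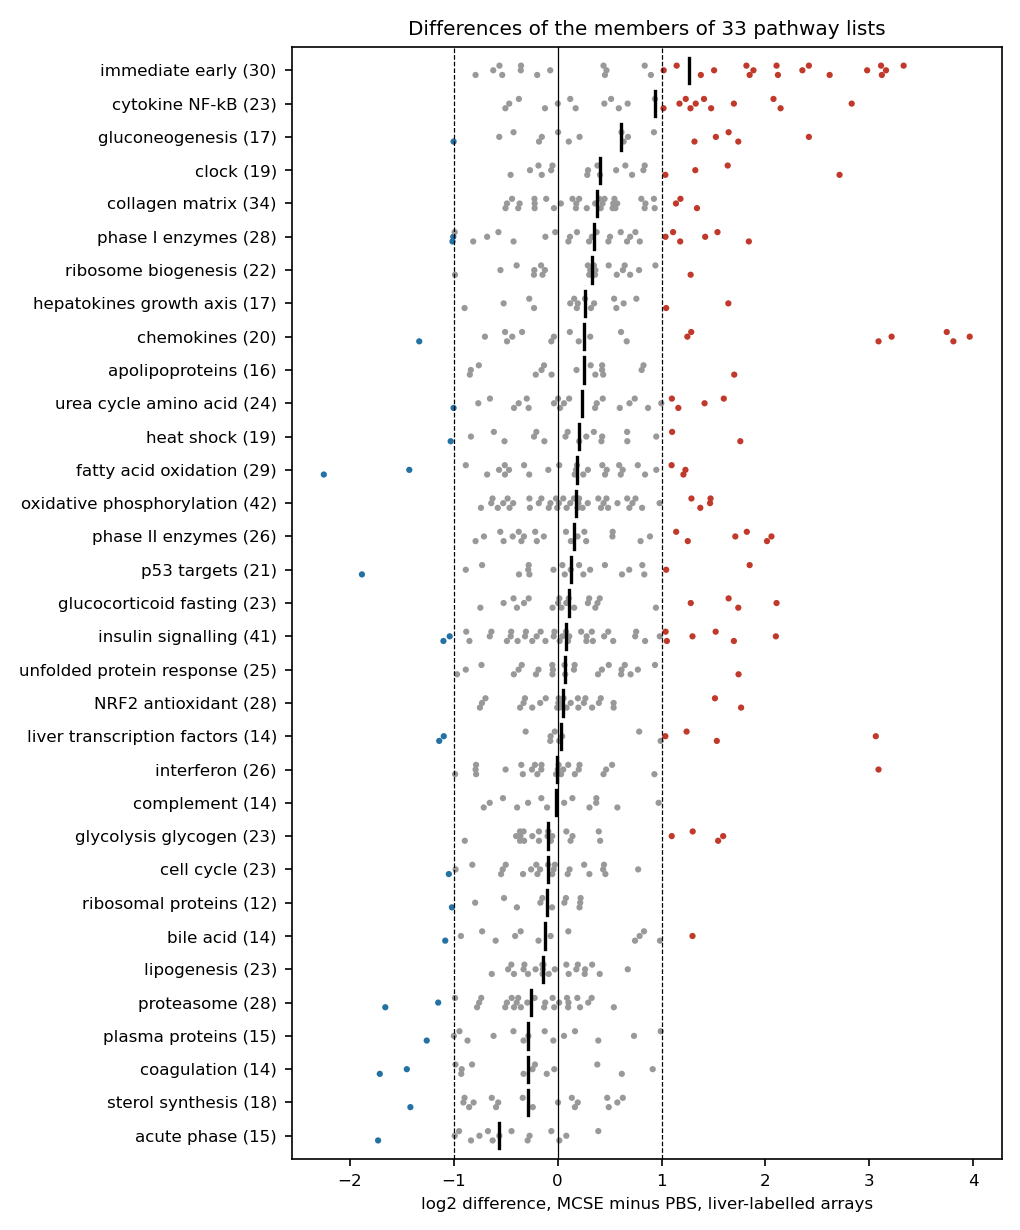
Log2 difference (MCSE minus PBS, liver-labelled arrays) of each measured member of 33 pathway lists, 1 point for each gene, with the number of measured members in brackets. Black bars are list medians and dashed lines mark a 2-fold difference; red points are at least 2-fold higher and blue points at least 2-fold lower, and the immediate early list has the highest median (1.26).

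Immediate early genes had the highest median of the 33 lists. Of 30 measured members (33 on the array), 17 passed 2-fold upward and 0 downward, with a median of 1.26 and a range from -0.79 to 3.33, where 8.27% of all genes were higher. Egr1, a zinc finger factor, lay at 9.50 with PBS and 12.83 with MCSE (the order kept for all pairs of values below), a difference of 3.33. Gadd45b, a stress-response gene, lay at 10.02 and 13.18 (3.16), and Myc, a growth regulator, at 9.73 and 12.84 (3.11). Nr4a2 read 8.50 and 11.62 on its brightest probe, Atf3, a stress-induced repressor, 8.95 and 11.93, and Zfp36, which speeds the decay of cytokine mRNAs, 9.61 and 12.22. In each of these 6 the MCSE array was more than 4-fold brighter. Nr4a1 was higher as well (2.42), and Fos, whose promoter is printed above, lay at 10.77 and 12.66, a difference of 1.88. Not all members differed this way. Jun, the partner of Fos in AP-1, was at 13.26 and 12.72 (-0.53), and 8 of the 30 members lay below 0. Without the genes apart on the PBS liver array, Gadd45b, Nr4a2 and Nr4a1 among them, 13 of 25 were higher, with a median of 1.02. Of the 17 higher members, 3 were under the array median with PBS and passed the filter only through the MCSE array. The second probe of Myc gave 0.55, and those of Nr4a2 (-0.05) and Fos (-0.08) lay under the median on both arrays.

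Chemokines formed a short group of steep differences within a list of small ones. The list median was 0.26 and its mean 0.92, with 7 of 20 members higher and 1 lower. Cxcl2 lay at 8.93 and 12.90, Ccl7, which draws in monocytes, at 9.09 and 12.90, and Ccl2, the main attractant of monocytes, at 10.42 and 14.16, in linear terms 15.6-fold, 14.0-fold and 13.4-fold. Cxcl1 read 11.45 and 14.66 (3.21), and Cxcl10, which interferon induces and which attracts T cells, 8.56 and 11.65 (3.09). These 5 genes stood apart from the other 15, the next being Ccl3 at 1.29 with its PBS value at the floor and Ccl12 at 1.25. Ccl22, which attracts regulatory T cells, was the member at least 2-fold lower (-1.33). None of the 7 was apart on the PBS liver array by the rule above, though 3 of them passed the filter only through the MCSE array. Ccl2, Ccl7, Cxcl1, Cxcl2 and Ccl12 were dimmer on the PBS muscle array than on the PBS liver array, so the rule could not flag them as dim. On the muscle arrays, which are other RNA, the PBS and MCSE values were 8.85 and 11.53 for Ccl2 and 8.58 and 11.17 for Cxcl1.

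Targets of NF-kB and cytokine signalling were also more often higher than lower. Of 23 measured members 11 were higher and 0 lower, with a median of 0.94, and none was apart. The rule could not flag as dim those that were dimmer on the PBS muscle array, such as Tnfaip3 (8.92 there). Of the 11, 3 passed the filter only through the MCSE array. Tnfaip3, which encodes the A20 inhibitor of NF-kB, lay at 9.49 and 12.32 (2.83). Csf1, the macrophage growth factor, read 10.48 and 12.62, Rela, a subunit of NF-kB, 9.68 and 11.75, and Socs3, an inhibitor of cytokine and insulin receptors, 9.64 and 11.33. Irf1 (1.48) and the adhesion molecule gene Icam1 (1.41) followed. Several classical members did not pass 2-fold. Nfkbia, the inhibitor that NF-kB itself induces, was at 0.17 and Tnf at -0.37, while Il6 was below the median on both arrays. Ptx3, a pattern recognition protein made on inflammatory stimulation, was higher on both of its probes, 3.40 on the brighter and 1.67 on the second.

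Leukocyte marker lists had medians of either sign on the same arrays, and their part in the chemokine values was not tested. Of 16 macrophage and Kupffer cell markers, 1 was higher and 1 lower, with a median of -0.10 and summed intensities of 117712 with PBS and 89702 with MCSE. Clec4f, the marker of Kupffer cells, was at 0.06, and Vsig4, a complement receptor of resident macrophages, was lower at -1.09, while Cd14, an endotoxin co-receptor, was higher at 1.28. The Vsig4 probe read 15.34 on the PBS liver array and as much as 15.49 and 15.24 on the muscle arrays. Neutrophil and mast cell markers had a median of -0.27, with 0 of 8 higher and 1 lower, S100a8 (-1.16), while its partner S100a9 was at 10.56 and 11.20 (0.63). S100a8 was bright on the PBS liver array in the sense above. The 5 measured T and NK cell markers had a median of 0.38 and the 5 B cell markers one of -0.78. Interferon targets stayed near 0 (median -0.01, 1 of 26 higher and 0 lower), and the higher one was Cxcl10, which stands on both lists. Ifit1 (0.21) and Irf7 (-0.02) were within the SD per probe.

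Acute phase proteins, which hepatocytes secrete under cytokine control, leaned the other way. Their median of -0.56 was the lowest of the 33 lists, and 12 of 15 members lay below 0, although 0 were 2-fold higher and only Lcn2 was 2-fold lower (1 of 15). Lcn2, an iron-binding protein, lay at 13.28 and 11.56. Hp, haptoglobin, read 16.14 and 15.87, near the top of the scale on both.  Without the apart genes the median was -0.37 and 0 of 12 passed 2-fold.

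Heat shock, unfolded protein, antioxidant and p53 lists lay close to the background. The heat shock list had a median of 0.21, with 2 of 19 higher and 1 lower. Hspa1b, an inducible Hsp70, was at 9.52 and 11.28 (1.76) and its co-chaperone gene Dnajb1 at 1.10. Hsp90aa1, the inducible Hsp90, was lower on its 2 member probes (-1.03 and -1.07). Of 25 genes of the unfolded protein response, 1 was higher, Myd116 (now Ppp1r15a), which reverses translation arrest, at 1.74, and 0 lower. The chaperone Hspa5 was at -0.38 and Ddit3 at 0.16. Among 28 antioxidant targets of NRF2 the median was 0.05, with Gclc, the catalytic subunit of glutathione synthesis, at 1.77 and Osgin1 at 1.51, while Nqo1 (0.02) and Hmox1 (-0.11) hardly differed. The p53 targets gave 2 higher and 1 lower of 21, with the antiproliferative gene Btg2 at 1.85, and the lower one, Sesn1, had its MCSE value at the floor (9.63 on the PBS liver array). Without the apart genes 0 members of the heat shock and p53 lists were lower, and 0 of the unfolded protein list were higher.

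Among genes for plasma proteins the differences were small and more often negative. Of 15 measured plasma proteins 0 were higher and 1 lower, with a median of -0.28. Alb, serum albumin, lay at 15.79 and 15.36, and Ttr, which carries thyroid hormone, at 14.13 and 14.20. The lower member was Itih3, a hyaluronan-binding inhibitor chain, at -1.26, and 0 of 13 were lower without the apart genes. Coagulation genes had the same median of -0.28, with 11 of 14 below 0. F12, factor XII of the contact pathway, read 11.53 and 9.82 (-1.71), Fgb, the fibrinogen beta chain, 13.32 and 11.87 (-1.45), and Serpinc1, antithrombin, 12.37 and 11.44 (-0.93), whereas F2, prothrombin, was at 0.62. F12 and Fgb were both bright on the PBS liver array in the sense above, and without such genes 0 of 11 coagulation genes passed 2-fold. Complement genes were centred near 0 (median -0.02) and 0 of 14 passed 2-fold, with C3 at -0.39 and C9 of the membrane attack complex at -0.71.

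Apolipoprotein and lipoprotein genes were scattered about a median of 0.25, with 1 of 16 higher and 0 lower. The higher one was Apoa5, a regulator of plasma triglycerides, which lay under the array median on the PBS liver array (8.68) and above it with MCSE (10.38). It was apart by the rule above, and 0 of 15 were higher without such genes. Apoa1 of HDL was at 0.44, Apob at 0.43 and Apoc3 at 0.36, all within the SD per probe. In the bile acid list 14 of 23 genes were measured. Cyp7a1, the rate-limiting enzyme of bile acid synthesis, was lower (11.03 and 9.95, a difference of -1.08), Cyp8b1, which makes cholic acid, was at -0.36, and Abcc2, a canalicular exporter, was higher at 1.30 on its brighter probe and 0.22 on the other. The Cyp7a1 probe also read 11.26 and 10.72 on the muscle arrays, so its signal was not confined to the liver label. Slc10a1, the main bile acid uptake carrier of hepatocytes, did not reach the median on either array.

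Several enzymes of drug and steroid clearance were higher with MCSE. In phase I, 6 of 28 genes were higher (21.4%, against 8.27% of all genes) and 2 lower (median 0.35). Cyp2e1, the ethanol-inducible cytochrome, lay at 12.64 and 13.82 (1.18), Fmo2, a flavin monooxygenase, at 11.05 and 12.89 with 0.87 on its second probe, and Cyp4b1 at 13.18 and 14.72. Cyp2d9 (1.42) and Cyp2d26 (1.04 and 1.26 on its probes) were also higher. These genes belong to families of close relatives, and cross-hybridisation was not tested. Fmo5 was higher on the probe that is brightest over the 6 arrays (1.11) but gave -0.99 on the other, so its probes disagree in direction. Cyp1a2, a marker of the pericentral zone, was at -0.81, and the lower members were Adh4 (-1.01) and Cyp2b10 (just 2-fold, chosen after its value was seen). The Cyp1a2 probe read 10.30 on the PBS liver array and 10.49 and 9.87 on the muscle arrays.

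In phase II, 6 of 26 genes were higher (23.1%) and 0 lower. Ugt2b38, a glucuronosyltransferase, read 11.63 and 13.68 (2.06), its relative Ugt2b37 11.83 and 13.08 (1.25), and Sult1d1, a sulfotransferase for catecholamines, 10.10 and 12.12 (2.01). The glutathione transferases of the theta class went with them (Gstt1 1.71, Gstt2 1.82), although the second probe of Gstt2 was dim and gave -0.09. Gstm1 of the mu class was at -0.79. Without the apart genes, 6 of 28 and 5 of 25 were higher in phases I and II. The proximal tubule of the kidney also expresses enzymes of both phases, and of 19 of its markers 10 were higher on the same array. Their part in these differences was not tested.

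Urea cycle and amino acid genes gave 4 higher and 1 lower of 24, with a median of 0.24. The cycle itself had no common direction, with Cps1, its first enzyme, at -0.65, Otc at -0.28 and Asl, which releases arginine, at 1.16. Kmo of the kynurenine pathway (9.18 and 10.78), Hgd of tyrosine breakdown (10.68 and 12.09) and Got1, the cytosolic aspartate transaminase (9.45 and 10.55), were the other higher members. Gpt1, the alanine transaminase, was lower by just 2-fold. With the apart genes left out, 3 of 22 were higher and 0 lower. Markers of the pericentral and periportal zones of the liver lobule showed no common shift. The medians were 0.10 over 7 genes and -0.03 over 9, with Glul at -0.05 and Cyp2f2 at -0.99. The Cyp2f2 probe read 13.83 on the PBS liver array and 13.57 and 14.14 on the muscle arrays.

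Gluconeogenic genes and their regulators had the third highest pathway median, 0.61, with 5 of 17 higher and 1 lower. G6pc, the catalytic subunit of glucose-6-phosphatase, lay at 12.72 and 14.25 (1.52), and Slc37a4, which brings its substrate into the endoplasmic reticulum, at 12.13 and 13.45 (1.32). Fbp1, an earlier enzyme of the pathway, was at 0.61 and 0.55 on its probes. Pck1, the entry enzyme, was at 0.21 on its brightest probe and -0.40 on the other, so its direction was not shared. The other higher members were regulators. Nr4a1 was counted among them, Ppargc1a, a coactivator that fasting induces, read 8.96 and 10.70, and Klf15, which drives amino acid use, 9.68 and 11.33. These 3 regulators were dim on the PBS liver array in the sense above. Without them and Gpt1, which was bright there, 2 of 13 genes were higher, G6pc and Slc37a4, and the median was 0.21. Kidney also makes G6pc, Pck1 and Fbp1, and the part of kidney transcripts in these values was not tested.

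Glycolytic and glycogen genes had a median of -0.09, with 4 of 23 higher and 0 lower. Slc2a1, the basal glucose transporter, was higher (8.82 and 10.36), as were Phka2, a subunit of phosphorylase kinase (8.94 and 10.53), Pkm2 (1.30) and the fructose kinase gene Khk (1.10), and 3 of 22 were higher without the apart genes. Pklr, the liver pyruvate kinase, and Gys2, the liver glycogen synthase, were at -0.18 and -0.06.  Fatty acid synthesis genes differed little. All 23 measured lipogenic genes lay within 2-fold, between -0.63 and 0.67, with Srebf1, the insulin-responsive regulator, at 13.41 and 13.27, Fasn, fatty acid synthase, at 14.78 and 14.57, and Acaca at 12.14 and 11.70.

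Sterol synthesis genes had a median of -0.29, with 0 of 18 higher and 1 lower, Nsdhl, a dehydrogenase of the pathway, at -1.42 on its brightest probe and -0.09 on the next. Sqle, which makes squalene epoxide, was at 0.17. The median turned to 0.07, and 0 of 14 were lower, without the 4 members that were bright on the PBS liver array. Fatty acid oxidation gave 3 higher and 2 lower of 29. Hadha, the alpha subunit of the mitochondrial trifunctional protein, was lower (13.32 and 11.07, a difference of -2.25), and so was Acadl, the long-chain dehydrogenase (14.90 and 13.48). Ehhadh, the peroxisomal bifunctional enzyme, was higher at 1.21, Acot2 at 1.23 and the carnitine carrier Slc22a5 at 1.10, while Cpt1a, the rate-limiting step, was at 0.16. Leaving out the apart genes left 2 of 25 higher and 2 lower. Acot12, a cytosolic thioesterase, was among the steepest lower genes (13.16 and 10.82).

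Liver transcription factors showed both directions. Of 14 measured, 4 were higher and 2 lower. Onecut1 (HNF-6), a factor of hepatocyte and bile duct development, lay at 10.84 and 13.90 (3.06), but at 14.89 and 14.70 on the muscle arrays, and its other probe was dim on both liver arrays (-0.34). Hnf4a, the nuclear receptor that maintains the hepatocyte state, was at 12.28 and 13.81 (1.53), Cebpa at 1.24 and Cebpb at 1.04. Foxa1 (-1.14) and Onecut2 (-1.10) were lower. Without the apart genes, Onecut1 and Onecut2 among them, 3 of 12 were higher and 1 lower. Hnf4a is also a factor of the proximal tubule.

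Insulin signalling genes were spread about 0. Of 41 measured members 6 were higher and 2 lower, with a median of 0.08. Insr, the insulin receptor, lay at 9.96 and 10.06, a difference of 0.10, and Irs1 did not reach the median on either array. Pik3cd, the delta catalytic subunit of PI 3-kinase, read 9.70 and 11.80 (2.10), and Grb14, an adaptor that inhibits the receptor, 9.76 and 11.28 (1.52). Cblb gave 1.30 on one probe and -0.51 on the other. The exchange factor gene Sos1 was just past 2-fold (1.05). The lower members were Flot1, of lipid rafts (-1.10), and Eif4ebp1, an inhibitor of translation (-1.04, chosen after its value was seen). Without the 7 apart genes, 2 of 34 were higher and 1 lower.

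Secreted factors and the growth hormone axis gave 2 higher and 0 lower of 17. Igf1, the growth factor that growth hormone induces in liver, was at 0.12, and Igfbp1, its binding protein that insulin suppresses, at 0.64. Gdf15, a stress hormone, was at 1.04 and Hsd3b5, a steroid enzyme, at 1.64. Fgf21 did not reach the median on either array. Glucocorticoid and fasting genes had 4 of 23 higher and 0 lower with a median of 0.11. Fkbp5, a sensitive target of the glucocorticoid receptor, lay at 12.61 and 13.55 (0.95), Per1 at 0.38 and Tsc22d3 at -0.39, all under 2-fold. The higher members were Sgk1, a kinase that raises sodium uptake (1.28), Dusp1 (2.11), which is also an immediate early gene, Klf15 and Ppargc1a, and 1 of 19 was higher without the apart genes.

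Circadian clock genes had a median of 0.41, with 4 of 19 higher and 0 lower. Per3 lay at 7.99 and 10.70 on its brightest probe (2.71) and gave 0.45 on its second. Bhlhb2 (now Bhlhe40), a repressor, read 10.25 and 11.89 (1.64), and Nr1d1 (REV-ERB alpha) 9.79 and 10.83 (1.04). Clock, at 1.32, gave -0.16 on its second probe, and Per2 was at 0.29. With the apart genes left out, 3 of 17 were higher. Arntl (BMAL1), the partner of CLOCK, was below the median on both arrays.

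Lists of genes that every cell uses held few members past 2-fold. Of 42 respiratory chain and ATP synthase genes 4 were higher and 0 lower (median 0.17): Ndufa10 (11.77 and 13.24), Ndufs8 (11.68 and 13.15), Atp5d (1.37) and Ndufa9 (1.29). All 4 were apart on the PBS liver array, and 0 of 37 passed 2-fold without such genes. Proteasome genes had a median of -0.26, with 0 of 28 higher and 2 lower. Psma3, an alpha ring subunit, was lower on 3 probes (15.28 and 13.62 on the brightest, with differences of -1.66, -0.62 and -0.96), and Psmc5, an ATPase of the cap, was at -1.15. Leaving out the apart genes left 1 of 27 lower. Ribosomal proteins had a median of -0.10 over 12 genes, and Rpl38 was lower on its probes (-1.02 and -0.94). Ribosome biogenesis genes, many of them MYC targets, leaned upward (median 0.33, 14 of 22 above 0), but only Pes1 passed 2-fold, at 1.28 and 1.14 on its probes. Cell cycle genes gave 0 higher and 1 lower of 23, with Mki67 at -0.04, and 0 of 21 were lower without the apart genes.

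Extracellular matrix genes had a median of 0.38, 24 of 34 above 0, 3 higher and 0 lower. Col1a1, of fibrillar collagen, lay at 9.85 and 10.99 (1.14), Col5a2 at 1.18 and 0.61 on its member probes, and Thbs1, a matrix glycoprotein that also belongs to the serum response, at 1.34. Col3a1 was at 0.14 and Fn1 at 0.56. With Col5a2 and the other apart gene left out, 2 of 32 were higher.

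**Figure D4:**
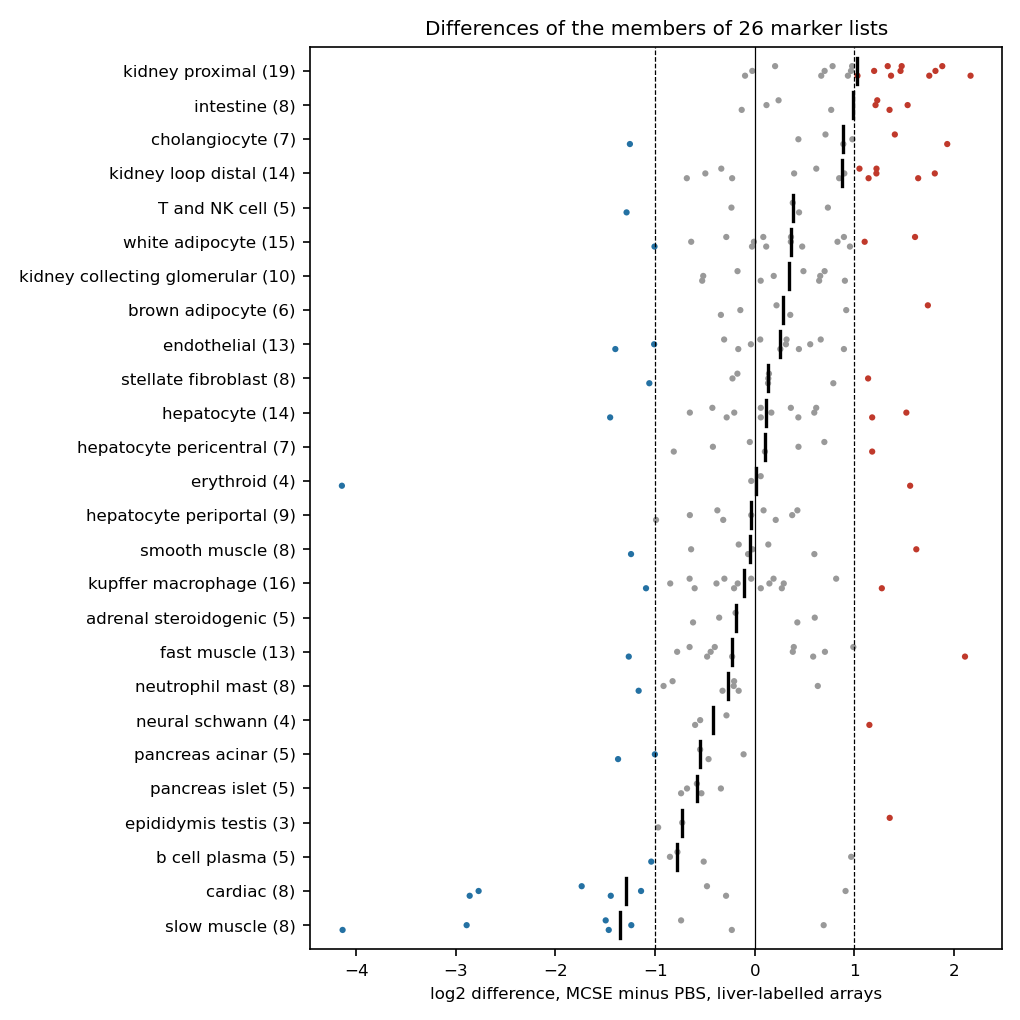
Log2 difference (MCSE minus PBS, liver-labelled arrays) of each measured member of 26 cell type marker lists, 1 point for each gene, with the number of measured members in brackets. Black bars are list medians and dashed lines mark a 2-fold difference; the proximal tubule list has the highest median (1.03) and the slow muscle list the lowest (-1.35, over members that passed the filter).

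Kidney tubule markers were higher with MCSE and heart and slow muscle markers lower. In bulk RNA fewer cells of a type and less RNA per cell cannot be told apart. Of 19 proximal tubule markers, 10 were higher and 0 lower, with a median of 1.03, where 8.27% of all genes were higher. Slc22a12, the urate transporter, lay at 10.17 and 12.34 (2.17), Lrp2 (megalin), the endocytic receptor of the brush border, at 10.20 and 12.09, and Slc34a1, the phosphate carrier, at 14.24 and 15.44. Kap, which was near the top of the scale on both arrays, was at -0.02. Of 14 markers of the loop and distal tubule, 6 were higher and 0 lower (median 0.87), with Umod, uromodulin of the thick limb, at 12.47 and 14.27, Slc12a1, the carrier that loop diuretics block, at 11.86 and 13.08, and Slc12a3, the thiazide-sensitive carrier, at 1.64 and 2.27 on its probes. Collecting duct and glomerular markers gave 0 of 10 past 2-fold and a median of 0.34. The summed intensity of the proximal tubule list was 181902 with PBS and 286787 with MCSE, that of the loop and distal list 31251 and 65416, and that of the hepatocyte list 116434 and 120765. None of the higher kidney genes was apart on the PBS liver array, but the rule could hardly flag kidney markers as dim. On the muscle arrays the proximal tubule medians were 8.78 and 9.26, below the 11.33 of the PBS liver array. Those of the loop and distal list were 8.83 and 8.98, below 10.67.

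Cardiac and slow muscle markers were lower. Of 11 cardiac markers on the array 5 were lower and 0 higher, and of 12 slow muscle markers 5 were lower and 0 higher. Of those lower, 4 cardiac and 2 slow muscle markers were under the array median with MCSE and so passed the filter only through the PBS array. The medians were -0.48 and -0.51 over all markers on the array, and -1.29 and -1.35 over the 8 of each list that passed. Those 8 had median intensities of 10.15 (cardiac) and 12.14 (slow muscle) on the PBS liver array. On the muscle arrays the medians were 11.90 and 11.27 (cardiac) and 13.83 and 14.91 (slow muscle). They were 11.60 and 12.60 on the PBS adipose array, and 8.59 and 9.60 on the MCSE adipose array. The signal was thus not confined to the liver label. Mb, myoglobin, lay at 12.54 with PBS and 8.40 with MCSE, a difference of -4.14 and 17.6-fold in linear terms. Actc1, cardiac actin, was lower on both of its probes (12.55 and 9.78 on the brighter, -4.63 on the second), and so were Tnnt2, cardiac troponin T (10.91 and 8.05), and Myl3, the slow myosin light chain (12.03 and 9.14). Myh6, a cardiac myosin heavy chain, was at -1.14, and Myh7 did not reach the median on either array. Fast muscle markers had a median of -0.23 with 1 of 13 higher and 1 lower, and Ckm was at 9.02 and 8.55, close to the array median. The summed intensity of the slow muscle list was 36561 with PBS and 23444 with MCSE.

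White adipocyte markers had 2 of 15 higher and 1 lower (median 0.36). Lep, whose transcript these mice still make although its protein is not functional, was at 15.04 and 15.93, Adipoq, adiponectin, at 14.59 and 14.56, and Cfd at 14.50 and 14.97. Cd36, a fatty acid transporter, was higher at 1.61 and the lipid droplet gene Plin at 1.10, and Acvr1c, an activin receptor, lower at -1.01. Of 13 measured endothelial markers 0 were higher and 2 lower, with a median of 0.26 and 8 above 0. The lower ones were Clec4g (-1.40) and Stab2 (-1.01), both typical of liver sinusoids, while Pecam1, of all endothelium, was at 0.44 and 0.64 on its probes. On the muscle arrays Clec4g read 11.25 and 11.12 and Stab2 10.26 and 10.27, against 11.38 and 10.77 on the PBS liver array. Neither signal was thus confined to the liver label. Epithelial markers of gut and bile duct were higher in part. In the intestine list 4 of 8 were higher and 0 lower, with Lgals4 at 1.23 and 1.13 on its probes and Krt20 at 1.35. With Cdx1, which was apart, left out, 3 of 7 were higher. In the cholangiocyte list 2 of 7 were higher and 1 lower, with Krt19 at 0.89, Tspan8 at 1.93, Cldn7 at 1.41 and Sox9, the lower one, at -1.25, and 1 of 6 was higher without the apart genes. The exocrine pancreas list gave 0 of 5 higher and 2 lower, colipase (Clps) at -1.37 and Ctrb1 at just 2-fold. Both probes were also bright on the muscle arrays, Clps at 13.79 and 13.66 and Ctrb1 at 11.22 and 10.74. The list of red cell precursors gave 1 of 4 higher and 1 lower, with a median of 0.01. Alas2, the heme enzyme of these cells, lay at 11.89 with PBS and at the floor with MCSE, so it was at least 17.7-fold lower. Klf1 was higher at 1.56, with its PBS value under the array median (8.29). Both were apart on the PBS liver array, and 0 of the other 2 passed 2-fold. Of the lymphocyte lists, 5 of 15 T and NK cell markers and 5 of 10 B cell markers reached the median on either array, and 1 of each was lower, Cd3g (-1.29) and Pax5 (-1.04).

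The steepest differences among genes at or above the median on both arrays were not all in these lists. Of the 15 with the highest differences, Egr1, Ccl2, Ccl7 and Ptx3 are described above. Reg3g, a secreted lectin of the gut that binds bacteria, lay at 9.55 and 12.88. Pap, an older symbol that RefSeq lists for both Reg3b, a relative of Reg3g, and Papola, lay at 11.31 and 14.56. Usp27x, a deubiquitinase, was at 9.37 and 14.04 (4.67), Styx, a pseudophosphatase, at 10.74 and 15.09 (4.35), and Jmjd4, a hydroxylase, at 9.50 and 13.71 (4.21). On the muscle arrays, however, Usp27x read 14.68 and 15.20, Styx 15.02 and 15.62, and Jmjd4 14.68 and 14.89, all well above the PBS liver value. Rgs20 (3.67), Mtss1 (3.61), Lztfl1 (3.58) and Pde4a, a cyclic AMP phosphodiesterase (3.55), had the same pattern, with at least 12.33 on either muscle array against at most 9.60 on the PBS liver array.

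Among the 15 lowest differences on that filter were Myl3, Actc1, Acot12 and Hadha. The tyrosine kinase signalling inhibitor gene Spred2 lay at 13.99 and 11.54 (-2.45) on its brightest probe but at -0.02 on the second. Dock2, a Rac activator of leukocytes, was at -2.34 and -0.41 on its probes. Fpr1, a formyl peptide receptor of neutrophils, read 11.67 and 9.26, and Oscar, a receptor of osteoclasts and myeloid cells, 12.51 and 10.24. On the muscle arrays Fpr1 read 11.18 and 10.41 and Oscar 12.38 and 11.04, so neither signal was confined to the liver label. 1100001G20Rik was among the lowest as well, at 15.54 and 13.41, against 10.06 and 10.75 on the muscle arrays. Outside that filter the largest differences of all were those of Ceacam18 (7.81 and 12.98) and Baz1a, a chromatin remodelling subunit (8.03 and 13.15), upward, and of Cd69, an early activation antigen of lymphocytes (13.55 and 8.65), downward. These 3 were chosen after their values were seen.

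**Figure D5:**
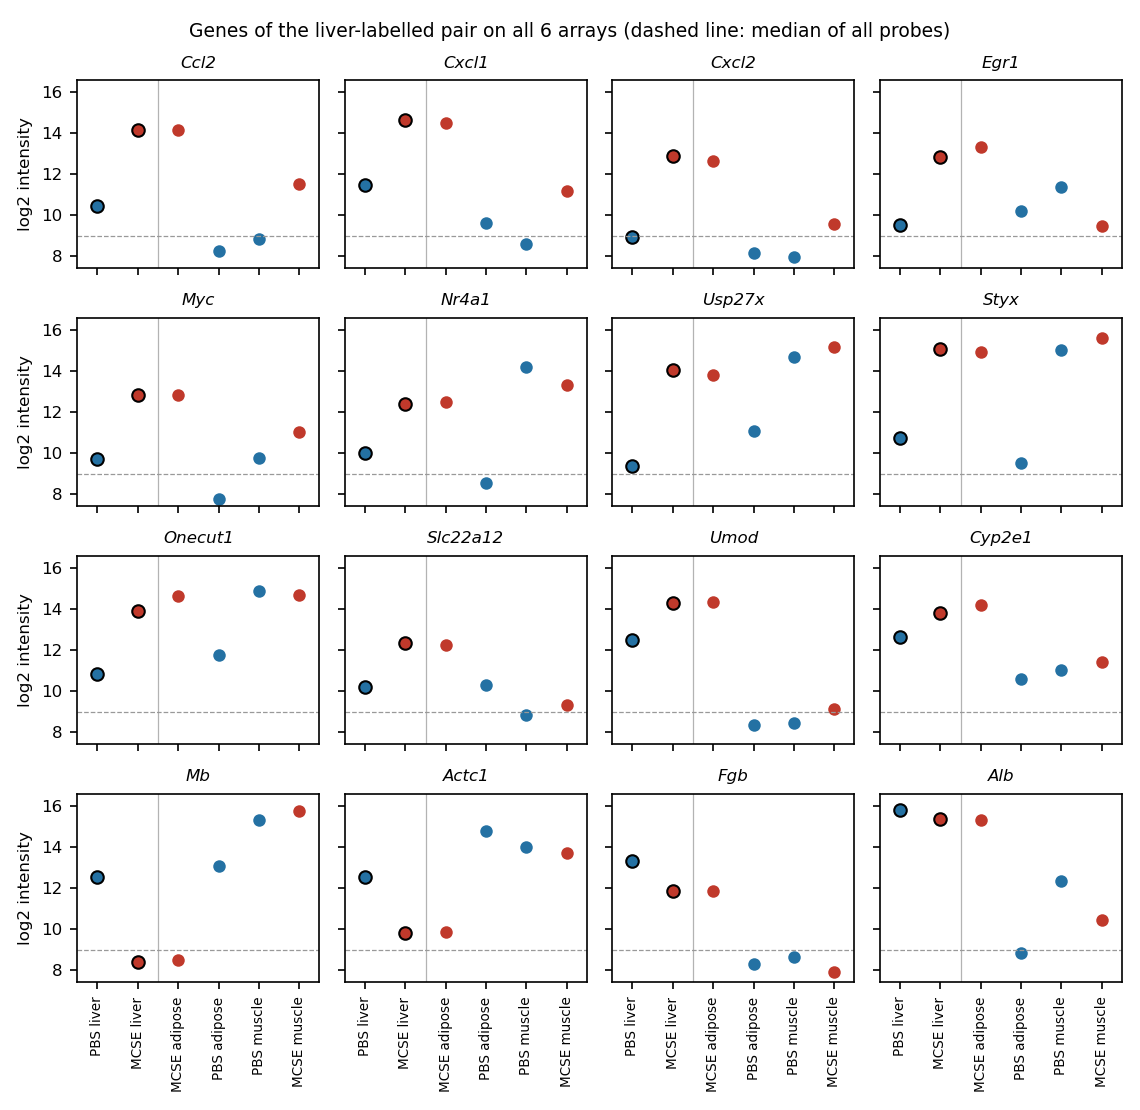
Log2 intensity of 16 genes on the 6 arrays, 1 point for each array, blue for PBS and red for MCSE, with the liver-labelled pair outlined at the left of each panel and the median of all probes dashed. Ccl2, Cxcl1 and Cxcl2 are higher on the MCSE liver array than on its PBS partner and both muscle arrays, whereas the PBS liver values of Usp27x and Styx are lower than on both muscle arrays, and Mb is dim in both MCSE samples labelled liver and adipose.

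The plot of 16 genes on all arrays sets both patterns side by side. The MCSE adipose array gave values close to those of the MCSE liver array throughout, for example 14.17 for Ccl2, 14.33 for Umod and 8.49 for Mb, against 14.16, 14.27 and 8.40. It entered no fold change here, but it is 1 of the 3 arrays that define the genes apart on the PBS liver array.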

How the data were processed

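The series holds 6 one-colour Cy5 arrays, 1 for each of 3 tissues and 2 treatments, and per the labels' protocols RNA was extracted with RNeasy columns and amplified with MessageAmp. The values are linear normalized intensities in the table the authors deposited, with equal distributions on all arrays. The submitters' processing notes name limma with no version or role, and the background correction and normalization are not given in the sources used here. A floor was set at the 5th percentile of all values (214.25) before taking log2. A symbol was available for 21020 probes, and a gene was represented by its brightest probe over the 6 arrays. Differences of 2-fold were counted with pandas 2.3.3 and numpy 2.4.6, after the counting had been tested on simulated data. With 1 array for each group no test was possible, no p-value is given, and intensities carry no counting error; the number of arrays limits the precision. Promoters came from RefSeq (GRCm38.p6).

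The members, the gene lists and the rules were chosen with earlier results of these data known, so list counts are descriptions. Genes were named if they were among the 15 largest differences in each direction at or above the median on both arrays, among the first 3 symbols of a list, or among up to 6 further list members past 2-fold. A gene outside this rule is said to have been chosen after its values were seen. Alternatives covered the floor, a pseudocount, scaling, the filter on dim probes, the probe chosen for a gene, the fold threshold, and leaving out genes apart on the PBS liver array.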

Additional observations from a re-analysis of the deposited data

Results flagged for a closer look

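For 6 of the named genes the liver-labelled pair and the muscle-labelled pair differed by at least 2-fold in opposite directions. With 1 array for each treatment and tissue the difference between the pairs was not tested. Egr1 was higher with MCSE by 3.33 on the liver-labelled arrays and lower on the muscle arrays (-1.92). The same held for Pap, with 3.25 and -1.14. Myl3 was lower on the liver-labelled arrays (-2.89) and higher on the muscle arrays (1.21), as were Myoz2, of slow muscle (-1.24 and 1.47), Dock2 (-2.34 and 1.95) and Hsp90aa1 (-1.03 and 1.5).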

How the results depend on the processing

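The counts of genes past 2-fold (938 higher, 682 lower) and of probes (1432 and 1076) depended on the fold threshold and on which genes entered. With the median required on both arrays, 563 genes were higher and 565 lower (771 and 844 probes), so that higher genes made up 49.9% of both in place of 57.9%. With the upper quartile on either array the counts were 645 and 576 genes (913 and 854 probes). Without the genes apart on the PBS liver array, 535 genes were higher and 435 lower (752 and 688 probes), where the rule itself removes genes by their PBS value. A 1.5-fold threshold gave 2275 genes higher and 2093 lower (3323 and 3302 probes), and a 4-fold threshold gave 151 and 40 (248 and 61 probes). The other 33 of 48 counts lay within 1.5 times of those reported. Fmo5 reversed, to -0.99, when the brightest probe was chosen on the liver-labelled arrays, which picks its other probe. Of 2594 values for 267 named genes under the alternatives, 27 others moved by more than the SD per probe. Among these, genes under 2-fold took the other sign through another choice of probe, Ncl (0.94 to -0.73) and Pck1 (0.21 to -0.40), or through the mean over probes, Cdkn1a (-0.28 to 0.36) and Dcn (-0.22 to 0.40). Of 707 list medians, 14 moved. The medians of 14 of 59 lists took the other sign under 1 or more alternatives, among them those of the T and NK cell (-0.23 to 0.41), epididymis and testis (-0.75 to 1.36), adrenal (-0.19 to 0.43), interferon (-0.22 to 0.03), insulin signalling (-0.03 to 0.17), sterol (-0.34 to 0.07), liver transcription factor (-0.05 to 1.01) and macrophage lists (-0.19 to 0.01), whereas the immediate early list stayed between 1.02 and 1.82. The cardiac median ranged from -2.11 to -0.48. No paired analysis was possible because each group has 1 array and the labels carry no replicate numbers.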
